A study of Homo sapiens with 8 samples.

Results

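The 32 genes described here encode enzymes and glucose transporters of glycolysis, kinases that inhibit pyruvate dehydrogenase, and proteins of the response to low oxygen. They come from a list of 38 symbols, and each is represented by the transcript cluster that carries its symbol, alone or with others, and has the highest mean over the 8 arrays. They make up 32 of the 17881 clusters measured, and 3 of them carry a second symbol: SLC2A3;SLC2A14, SENP1;PFKM and EGLN1;SCAND2P. The other 6 symbols, GAPDH, PGAM1, CA9, ANKRD37, SLC16A1 and SLC16A3, have no row under the annotation used and were not analysed here. No filter on low values was applied, so all 32 were tested.

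Glycolysis splits glucose into pyruvate in the cytosol and regenerates its cofactor by turning pyruvate into lactate. Several of its steps are served by isozymes from separate genes, and leukemia cells are known for a high glycolytic flux. When oxygen is scarce, the prolyl hydroxylases of the EGLN family no longer mark the alpha subunit of the hypoxia-inducible factor (HIF) for destruction, and the factor then raises many glycolytic genes together with genes of angiogenesis, mitochondrial turnover and histone demethylation. Glucocorticoids such as prednisolone are known to lower glucose uptake in lymphoid cells.

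RNA levels come from 8 Affymetrix exon arrays, all of them labelled RS4;11, an acute lymphoblastic leukemia line of B-cell precursor origin with an MLL fusion. The 4 groups, of 2 arrays each, were cells with an shRNA vector against BTG1 and prednisolone, the same with vehicle, cells with the control shRNA vector and prednisolone, and the same with vehicle, in each case after 8 h. All groups had been transduced with a vector, and the labels give no prednisolone dose. Since they also do not say if the arrays of 1 group are separate cultures, the spread behind each p-value is that among these arrays and may be technical. The design asks how BTG1, an antiproliferative protein, alters the response to the drug.

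The labels were checked first. The cluster of BTG1 and LINC01619 was lower where BTG1 shRNA was labelled, by -2.64 (SE 0.20) under prednisolone and by -2.06 (SE 0.20) under vehicle, on the log2 scale used for all levels and differences below. Of 12 T-cell markers 11 were higher there under each treatment, and the summed signal of the list lay at 13.4 to 13.7 on these arrays, against 8.91 to 9.85 on the control arrays. Of 12 B-lineage markers 10 were lower under prednisolone and 11 under vehicle, with a summed signal of 9.20 to 9.34 on the arrays labelled BTG1 shRNA, against 12.9 to 13.3 on the control arrays. Of 4 measured markers of MLL-fusion leukemia 4 were lower on the arrays labelled BTG1 shRNA under each treatment. Their summed signal was 6.12 to 6.41 on these arrays, against 11.9 to 12.8 on the control arrays. A B-lineage profile with MLL-fusion markers, as the line's label gives it, was thus found on the control arrays and not on the others, which are named by their label below. Wherever the shRNA labels are compared, the effect of the shRNA and a difference of lineage cannot be told apart. The mean level over 7 myeloid, 5 erythroid or 8 stromal and epithelial markers was 3.48 to 5.25 on the arrays labelled BTG1 shRNA, against 3.63 to 5.46 on the control arrays. The stromal and epithelial list was not uniformly low. Its summed signal was 10.2 to 11.1 on the arrays labelled BTG1 shRNA and 10.5 to 11.4 on the control arrays, and KRT8 read 9.91 to 11.33. Of its 8 markers 1 was higher on the arrays labelled BTG1 shRNA under each treatment, and 1 myeloid marker was lower under vehicle. The first control vehicle array stood apart: its interquartile range was 2.95, and those of the other arrays lay between 3.39 and 3.80. Calls that use it are also given without it for the cluster chosen for each member, and for prednisolone in the other lists. Under vehicle, differences of BTG1, the markers, the cluster of PFKM alone and the other lists are given only with it. The number of arrays limits the precision.

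Much of the pathway read brightly on every array. GPI, ALDOA, PGK1, ENO1, PKM, LDHA and LDHB, 7 of the 32, were brighter than 90% of all clusters on each of the 8 arrays, and PGK1, ENO1, LDHA and LDHB brighter than 99%. TPI1, which encodes triosephosphate isomerase, had levels of 3.08 to 3.43 and a place between the 11.2th and the 23.2th percentile. EGLN3 was the other member below the 50th percentile on every array. The plot of levels by array shows the 32 members in the order of their roles.

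**Figure D1:**
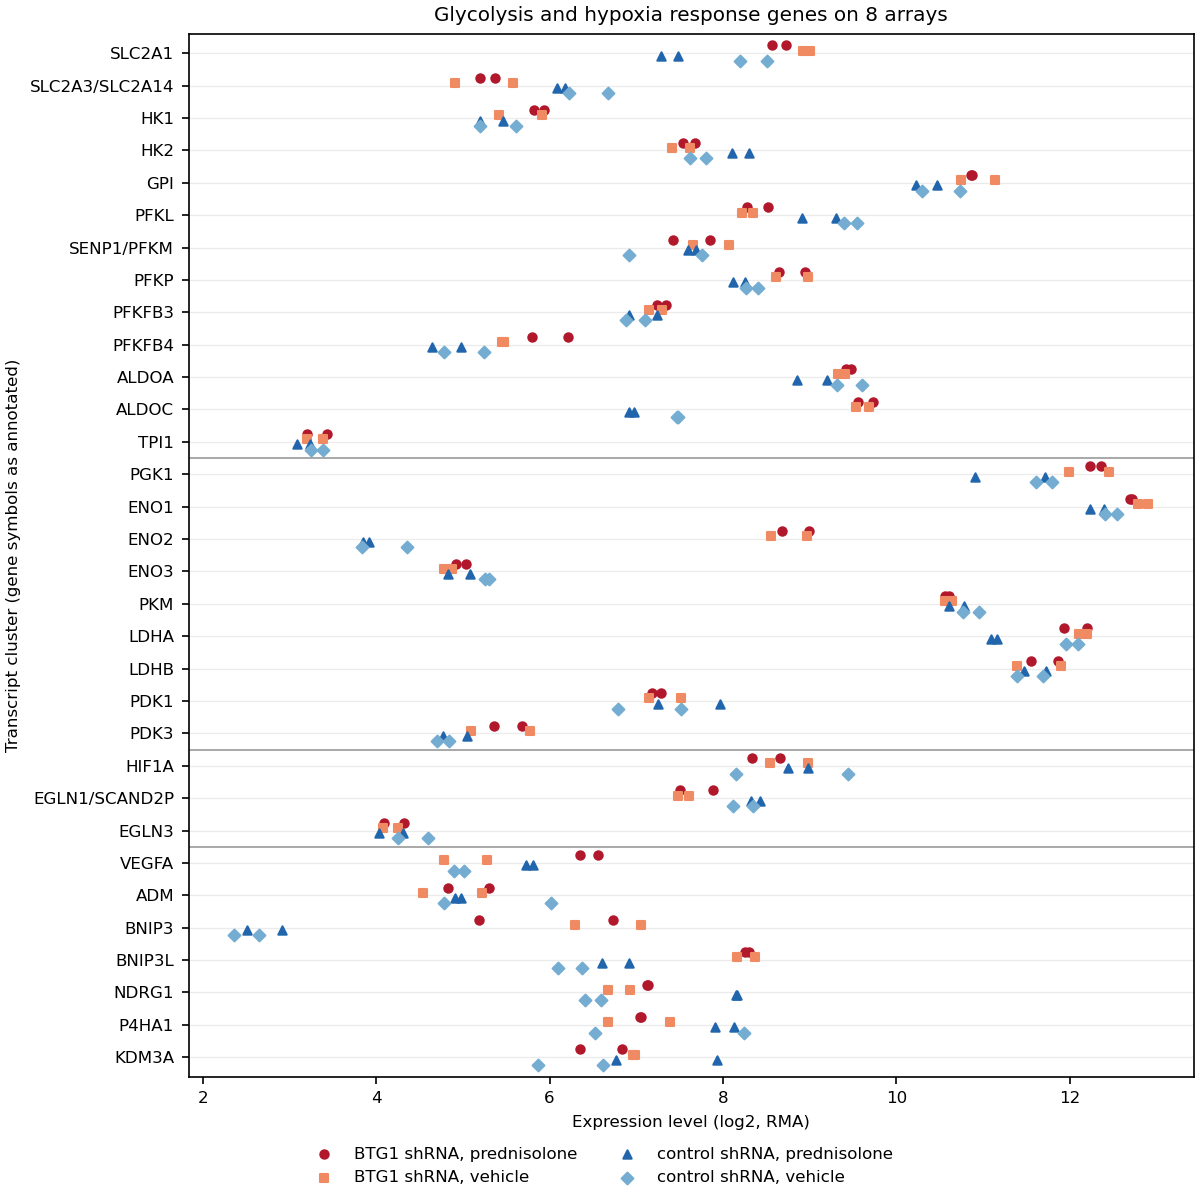
Expression level on each array (log2, horizontal axis) of the 32 clusters, ordered from transport and upper glycolysis through lower glycolysis and pyruvate fate and HIF regulators to hypoxia targets, with a grey line between these blocks. Each symbol is 1 array and its shape and colour give the group. On the arrays labelled BTG1 shRNA, ENO2, ALDOC, BNIP3 and BNIP3L lie to the right of all 4 control arrays.

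Between the arrays labelled BTG1 shRNA and the control arrays, ENO2, ALDOC, BNIP3 and BNIP3L were higher under both treatments, while PFKL and the SLC2A3;SLC2A14 cluster were lower under vehicle. Differences between isozymes of 1 step were not tested. Under vehicle 4 of the 32 genes were higher (12.5%, against 8.46% of all clusters) and 2 were lower (6.25%, against 6.21% of all clusters). The threshold was a Benjamini-Hochberg adjusted p below 0.05 in limma over all 17881 clusters. Under prednisolone 7 were higher (21.9%, against 10% of all clusters) and 1 was lower (3.12%, against 7.51% of all clusters). The share of lower genes under vehicle was thus close to that of all clusters. Without the first control vehicle array 7 were higher and 6 lower under prednisolone, against 12.2% and 9.52% of all clusters. In the same setting 4 were higher and 3 lower under vehicle, against 6.93% and 5.66% of all clusters. With each array centred on its median 7 were higher and 4 lower under prednisolone, against 8.25% and 7.64% of all clusters. The median difference of the 32 genes was 0.19 under prednisolone, where that of all clusters was 0.04, and 0.21 under vehicle, where that of all clusters was -0.15. The 4 genes that passed under both treatments did so in comparisons that share no array. Their tests do share 1 estimate of spread from all 8 arrays, so they are not independent. In bulk RNA, fewer cells of a type and less RNA per cell cannot be told apart.

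**Figure D2:**
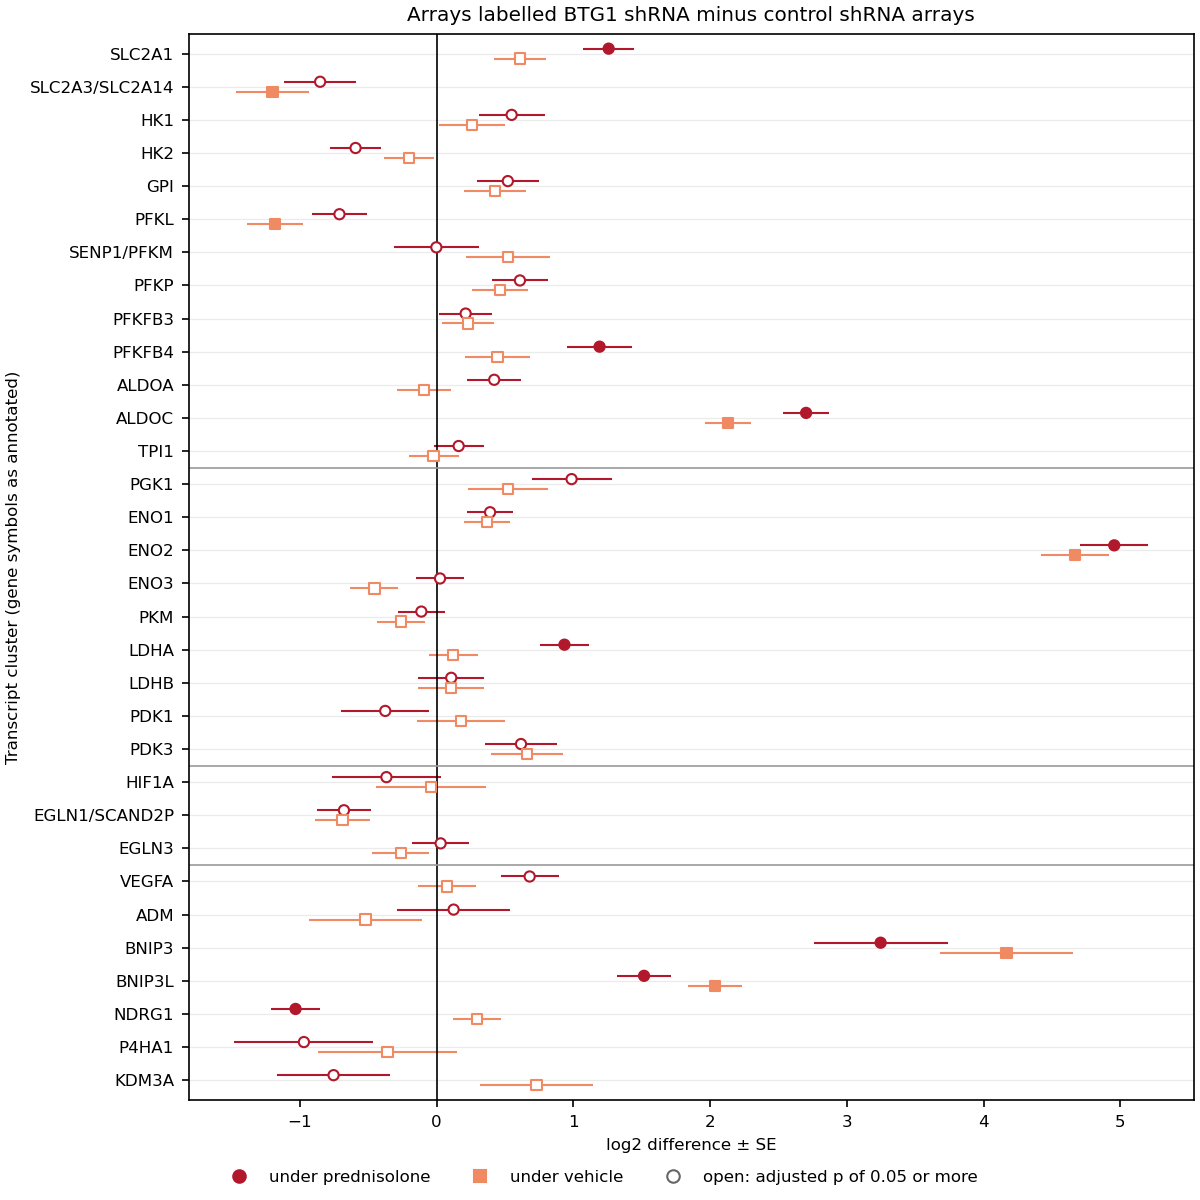
Difference between the arrays labelled BTG1 shRNA and the control shRNA arrays (log2, horizontal axis, with SE bars) for the 32 clusters, under prednisolone (circles) and under vehicle (squares). Filled symbols passed adjusted p below 0.05. ENO2 lies at 4.95 and 4.67, ALDOC at 2.70 and 2.13, and the SENP1/PFKM cluster at 0.00 and 0.52.

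ENO2, the enolase gene named for its expression in neurons, differed most of the 32. It read 9.00 and 8.68 on the prednisolone arrays and 8.55 and 8.97 on the vehicle arrays labelled BTG1 shRNA, against 3.92 and 3.85 on the control prednisolone arrays and 4.35 and 3.84 on the control vehicle arrays. All 4 arrays labelled BTG1 shRNA lay far above all 4 control arrays. The difference was 4.95 (SE 0.25, adjusted p = 1.98e-05) under prednisolone and 4.67 (SE 0.25, adjusted p = 2.55e-05) under vehicle. On the control arrays ENO2 lay between the 28.7th and the 30.9th percentile, where the files do not tell signal from background, so the size of the difference is uncertain. Without the first control vehicle array the difference under vehicle was 4.93 (adjusted p = 8.09e-05).

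ENO1, the enolase of most tissues, read 12.72 and 12.69 on the prednisolone arrays and 12.90 and 12.79 on the vehicle arrays labelled BTG1 shRNA, against 12.24 and 12.40 on the control prednisolone arrays and 12.55 and 12.41 on the control vehicle arrays. All arrays labelled BTG1 shRNA lay above all control arrays here too. The differences of 0.39 (SE 0.17, adjusted p = 0.187) under prednisolone and 0.37 (SE 0.17, adjusted p = 0.203) under vehicle did not pass, except under prednisolone after quantile normalization (0.45, adjusted p = 0.0397). ENO3, the enolase of muscle, stood at 0.03 (SE 0.18) and -0.45 (SE 0.18, adjusted p = 0.142). In the gene order of the RefSeq annotation of GRCh38, ENO2 and TPI1 lie close together on chromosome 12, with 2 protein-coding genes between their starts. TPI1 stood at 0.16 (SE 0.18) under prednisolone and -0.02 (SE 0.18) under vehicle. Its cluster was dim on every array, between the 11.2th and the 23.2th percentile, so a difference in TPI1 could have gone unseen.

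ALDOC, the aldolase gene best known from brain, read 9.56 and 9.73 on the prednisolone arrays and 9.53 and 9.68 on the vehicle arrays labelled BTG1 shRNA, against 6.97 and 6.91 on the control prednisolone arrays and 7.48 and 7.47 on the control vehicle arrays. Replicates lay close together, far closer than the shRNA labels did. The difference was 2.70 (SE 0.17, 6.51-fold, adjusted p = 4.57e-05) under prednisolone and 2.13 (SE 0.17, 4.38-fold, adjusted p = 0.000158) under vehicle. Without the first control vehicle array it was 2.14 under vehicle (adjusted p = 0.00064). ALDOA, the aldolase of muscle and most other tissues, stood at 0.42 (SE 0.20, adjusted p = 0.226) under prednisolone and -0.09 (SE 0.20, adjusted p = 0.738) under vehicle.

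BNIP3 and BNIP3L, the second also called NIX, encode receptors on the outer mitochondrial membrane that hand mitochondria to autophagy. BNIP3 read 6.73 and 5.18 on the prednisolone arrays and 7.05 and 6.29 on the vehicle arrays labelled BTG1 shRNA, against 2.92 and 2.51 on the control prednisolone arrays and 2.36 and 2.65 on the control vehicle arrays. The shRNA labels did not overlap, although the prednisolone arrays labelled BTG1 shRNA were well apart from each other. On the control arrays BNIP3 was among the dimmest clusters, at or below the 9.50th percentile, so the differences of 3.25 (SE 0.49, adjusted p = 0.00312) under prednisolone and 4.17 (SE 0.49, adjusted p = 0.00106) under vehicle are of uncertain size. Without the first control vehicle array the difference under vehicle was 4.02 (adjusted p = 0.00682). BNIP3L read 8.30 and 8.26 on the prednisolone arrays and 8.37 and 8.16 on the vehicle arrays labelled BTG1 shRNA, against 6.61 and 6.92 on the control prednisolone arrays and 6.09 and 6.37 on the control vehicle arrays. Its replicates lay close together and the shRNA labels did not overlap. The difference was 1.52 (SE 0.20, 2.86-fold, adjusted p = 0.00157) under prednisolone and 2.04 (SE 0.20, 4.10-fold, adjusted p = 0.000416) under vehicle, and 1.90 under vehicle without the first control vehicle array (adjusted p = 0.00179).

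The promoters of ENO2, BNIP3 and ALDOC are shown because these genes passed under both treatments, and all are known hypoxia-responsive glycolytic or mitochondrial genes. BNIP3L passed under both too, but was not among the RefSeq promoters used. Each run covers 250 bases before and 50 bases after the annotated start, 5′ to 3′ along the gene, from RefSeq on GRCh38.p14. Capitals mark the core of the hypoxia response element on either strand, searched as ACGTG and as GCGTG, so that antisense matches read CACGT or CACGC.
ENO2 (chr12:6914330-6914629, plus strand): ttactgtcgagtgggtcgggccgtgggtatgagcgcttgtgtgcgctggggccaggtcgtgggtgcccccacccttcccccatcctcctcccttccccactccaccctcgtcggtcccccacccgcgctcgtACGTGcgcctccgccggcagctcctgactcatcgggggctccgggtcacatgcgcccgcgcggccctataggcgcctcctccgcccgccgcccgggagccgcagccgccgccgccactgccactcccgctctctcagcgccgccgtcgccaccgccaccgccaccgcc
BNIP3 (chr10:131981874-131982173, minus strand): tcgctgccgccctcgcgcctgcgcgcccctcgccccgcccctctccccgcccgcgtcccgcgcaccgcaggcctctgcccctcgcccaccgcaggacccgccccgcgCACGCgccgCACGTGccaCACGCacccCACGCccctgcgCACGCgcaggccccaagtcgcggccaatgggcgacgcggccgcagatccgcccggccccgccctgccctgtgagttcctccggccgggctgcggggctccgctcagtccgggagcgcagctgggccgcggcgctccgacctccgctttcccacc
ALDOC (chr17:28576846-28577145, minus strand): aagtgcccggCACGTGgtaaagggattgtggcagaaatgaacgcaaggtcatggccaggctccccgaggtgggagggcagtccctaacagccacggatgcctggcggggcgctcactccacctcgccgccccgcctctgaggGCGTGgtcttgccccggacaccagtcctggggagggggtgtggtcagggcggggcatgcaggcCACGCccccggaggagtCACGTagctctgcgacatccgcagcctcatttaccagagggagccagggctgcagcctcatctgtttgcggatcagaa
ENO2 held 1 match, ACGTG with its first base at -118 from the start. BNIP3 held 6 matches, 4 of them GCGTG, with first bases from -143 to -104. ALDOC held 5 matches, of which 3 were ACGTG. A palindromic CACGTG counts once on each strand. Of 27305 promoters of this length 48.4% held at least 1 match to either form, 21.6% held ACGTG and 36.3% held GCGTG. The RefSeq promoters covered 28 of the members, and 22 of these held at least 1 match to either form, 11 held ACGTG and 17 held GCGTG. A match to 5 letters is a description of the sequence and not a binding site. LDHA held 6 matches and PGK1 held 4, while PFKP, HK1, PFKM, TPI1, PDK1 and EGLN3 held 0.

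Phosphofructokinase, which commits glucose to glycolysis, is built from liver, muscle and platelet subunits. PFKL, the liver subunit, read 8.52 and 8.27 on the prednisolone arrays and 8.22 and 8.35 on the vehicle arrays labelled BTG1 shRNA, against 9.30 and 8.91 on the control prednisolone arrays and 9.54 and 9.39 on the control vehicle arrays. All arrays labelled BTG1 shRNA lay below all control arrays. The difference was -0.71 (SE 0.20, adjusted p = 0.052) under prednisolone and -1.18 (SE 0.20, adjusted p = 0.00711) under vehicle. Under prednisolone it passed with each array centred on its median (-0.84, adjusted p = 0.0153), with array weights (adjusted p = 0.0315) and without either control vehicle array (adjusted p = 0.0427). Under vehicle it was -1.11 (adjusted p = 0.0263) without the first control vehicle array, and -1.12 without the first vehicle array labelled BTG1 shRNA, where it missed the threshold (adjusted p = 0.0645). PFKP, the platelet subunit, stood at 0.61 (SE 0.21, adjusted p = 0.091) under prednisolone and 0.46 (SE 0.21, adjusted p = 0.193) under vehicle.

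PFKM, the muscle subunit, has 2 clusters that disagree. The brighter, annotated SENP1;PFKM and so shared with the gene of a SUMO protease, read 6.92 to 8.07 over the 8 arrays with overlapping groups. It stood at 0.00 (SE 0.31, adjusted p = 1.00) under prednisolone and 0.52 (SE 0.31, adjusted p = 0.291) under vehicle, and at 0.94 (adjusted p = 0.0405) under vehicle without the second control vehicle array. The cluster annotated PFKM alone read 4.23 and 4.17 on the prednisolone arrays and 4.18 and 4.30 on the vehicle arrays labelled BTG1 shRNA, against 7.83 and 7.71 on the control prednisolone arrays and 8.26 and 8.81 on the control vehicle arrays. All arrays labelled BTG1 shRNA lay far below the control arrays, between the 32.9th and the 38.5th percentile, against the 81.2th to the 92.4th percentile on the control arrays. This cluster was lower by -3.57 (SE 0.22, adjusted p = 4.18e-05) under prednisolone and by -4.29 (SE 0.22, adjusted p = 2.22e-05) under vehicle. The 2 clusters thus gave different answers for the same symbol, and the signals of SENP1 and PFKM in the shared cluster cannot be separated here.

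**Figure D3:**
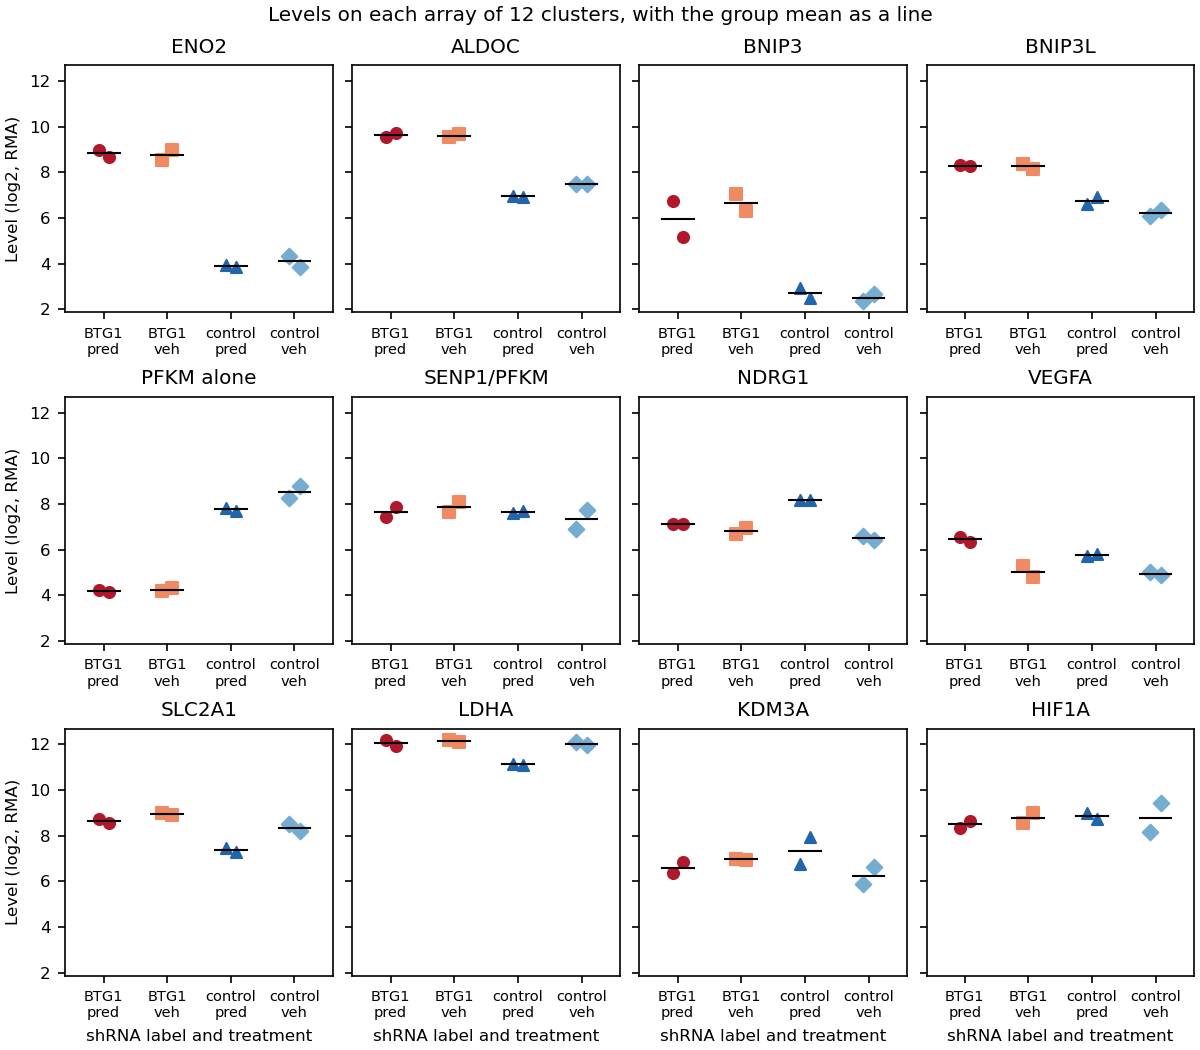
Level on each array (log2, vertical axis) of 12 clusters in the 4 groups, from left to right BTG1 shRNA with prednisolone (pred), BTG1 shRNA with vehicle (veh), control shRNA with prednisolone and control shRNA with vehicle. Each point is 1 array and the line is the mean of the group. PFKM alone stands at 4.17 to 4.30 on the arrays labelled BTG1 shRNA, while SENP1;PFKM overlaps between all groups.

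Glucose enters the cell through SLC2A1 (GLUT1) and SLC2A3 (GLUT3), and these differed in opposite directions, each past the threshold under 1 treatment. SLC2A1 read 8.72 and 8.56 on the prednisolone arrays and 9.00 and 8.93 on the vehicle arrays labelled BTG1 shRNA, against 7.48 and 7.29 on the control prednisolone arrays and 8.50 and 8.20 on the control vehicle arrays. The arrays labelled BTG1 shRNA lay above all control arrays, with the control prednisolone arrays the lowest. The difference was 1.26 (SE 0.19, 2.39-fold, adjusted p = 0.003) under prednisolone and 0.61 (SE 0.19, adjusted p = 0.074) under vehicle, where it passed with each array centred on its median (0.66, adjusted p = 0.0132). The SLC2A3;SLC2A14 cluster, which covers 2 near-identical transporters, read 5.37 and 5.20 on the prednisolone arrays and 4.91 and 5.58 on the vehicle arrays labelled BTG1 shRNA, against 6.09 and 6.18 on the control prednisolone arrays and 6.22 and 6.67 on the control vehicle arrays. It was lower on every array labelled BTG1 shRNA than on any control array. Under prednisolone it passed after quantile normalization (-0.94, adjusted p = 0.0446) and without either control vehicle array (adjusted p = 0.0458). The difference was -0.85 (SE 0.26, adjusted p = 0.0683) under prednisolone and -1.20 (SE 0.26, adjusted p = 0.0208) under vehicle, and -1.42 under vehicle without the first control vehicle array (adjusted p = 0.0217). It missed the threshold without the first vehicle array labelled BTG1 shRNA (-0.87, adjusted p = 0.141). A second cluster of the same pair of symbols stood at -0.27 (SE 0.17, adjusted p = 0.426) under prednisolone and -0.54 (SE 0.17, adjusted p = 0.0837) under vehicle.

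Further members passed under prednisolone and not under vehicle. PFKFB4, a regulator that sets the amount of the activator of phosphofructokinase, read 6.21 and 5.80 on the prednisolone arrays and 5.44 and 5.47 on the vehicle arrays labelled BTG1 shRNA, against 4.97 and 4.65 on the control prednisolone arrays and 5.25 and 4.78 on the control vehicle arrays. It was higher by 1.19 (SE 0.24, adjusted p = 0.0121) under prednisolone, and stood at 0.45 (SE 0.24, adjusted p = 0.258) under vehicle. Its isozyme PFKFB3 stood at 0.21 (SE 0.19) under prednisolone and 0.23 (SE 0.19) under vehicle. LDHA, which turns pyruvate into lactate, read 12.20 and 11.93 on the prednisolone arrays and 12.20 and 12.11 on the vehicle arrays labelled BTG1 shRNA, against 11.17 and 11.09 on the control prednisolone arrays and 12.10 and 11.96 on the control vehicle arrays. The control prednisolone arrays were thus the low ones. LDHA was higher by 0.94 (SE 0.18, 1.91-fold, adjusted p = 0.00924) under prednisolone, and stood at 0.12 (SE 0.18, adjusted p = 0.626) under vehicle. The limma test between the treatments did not pass for PFKFB4 (0.75, adjusted p = 0.537) or LDHA (0.81, adjusted p = 0.437). Leaving out the first prednisolone array labelled BTG1 shRNA ended both calls (PFKFB4 at 0.99, adjusted p = 0.091, and LDHA at 0.80, adjusted p = 0.081). So did leaving out the second array of the control prednisolone group (PFKFB4 at 1.03, adjusted p = 0.0964, and LDHA at 0.90, adjusted p = 0.0752). PGK1, the kinase of the first energy-yielding step, stood at 0.99 (SE 0.29, adjusted p = 0.0575) under prednisolone and 0.52 (SE 0.29, adjusted p = 0.273) under vehicle. Under prednisolone PGK1 passed with dim clusters left out (adjusted p = 0.04), with array weights (adjusted p = 0.0498) and when the first array of the control prednisolone group was left out (1.39, adjusted p = 0.0216). LDHB and PKM, which encode the other lactate dehydrogenase subunit and pyruvate kinase, stood at 0.11 (SE 0.24) and -0.11 (SE 0.17) under prednisolone and at 0.11 (SE 0.24) and -0.26 (SE 0.17) under vehicle.

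NDRG1, a stress-responsive gene that hypoxia is known to raise, was the 1 member lower on the arrays labelled BTG1 shRNA under prednisolone. It read 7.13 and 7.13 on the prednisolone arrays and 6.67 and 6.93 on the vehicle arrays labelled BTG1 shRNA, against 8.16 and 8.16 on the control prednisolone arrays and 6.60 and 6.41 on the control vehicle arrays. The difference was -1.03 (SE 0.18, 2.04-fold, adjusted p = 0.00588) under prednisolone and 0.30 (SE 0.18, adjusted p = 0.297) under vehicle.

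Of the genes that control HIF, EGLN1 lay close to the threshold and passed under several alternatives, and the others did not pass. HIF1A, the oxygen-regulated alpha subunit itself, stood at -0.37 (SE 0.40, adjusted p = 0.764) under prednisolone and -0.04 (SE 0.40, adjusted p = 0.948) under vehicle. Its 95% confidence intervals ran from -1.30 to 0.57 and from -0.97 to 0.89, and its control vehicle arrays, at 8.15 and 9.45, spanned all the others. Under vehicle it stood at -0.69 without the first and at 0.61 without the second of them. EGLN3, an inducible HIF prolyl hydroxylase, stood at 0.03 (SE 0.21) and -0.26 (SE 0.21). EGLN1;SCAND2P, the cluster of the main HIF prolyl hydroxylase, read 7.89 and 7.51 on the prednisolone arrays and 7.61 and 7.48 on the vehicle arrays labelled BTG1 shRNA, against 8.43 and 8.32 on the control prednisolone arrays and 8.34 and 8.12 on the control vehicle arrays. The arrays labelled BTG1 shRNA lay below all control arrays, at -0.68 (SE 0.20, adjusted p = 0.0566) under prednisolone and -0.69 (SE 0.20, adjusted p = 0.0609) under vehicle. It passed under both treatments with each array centred on its median (-0.80, adjusted p = 0.00996, under prednisolone and -0.64, adjusted p = 0.0264, under vehicle). Without the second control vehicle array it passed under prednisolone (adjusted p = 0.0404) and under vehicle (-0.80, adjusted p = 0.0383). With array weights (adjusted p = 0.03) and without the first control vehicle array (adjusted p = 0.0404) it passed under prednisolone only, and under vehicle it was -0.57 without that array (adjusted p = 0.183). Members that did not pass ranged from -0.97 to 0.99 under prednisolone (24 genes) and from -0.69 to 0.73 under vehicle (26 genes). Among them were the hexokinases HK1 at 0.55 (SE 0.24) under prednisolone and 0.26 (SE 0.24) under vehicle, and HK2 at -0.59 (SE 0.18, adjusted p = 0.0677) and -0.20 (SE 0.18). HK2 passed under prednisolone with centring (-0.72, adjusted p = 0.0318), array weights (adjusted p = 0.0398) and without either control vehicle array (adjusted p = 0.0476). GPI, the isomerase of the second step, stood at 0.52 (SE 0.23) and 0.42 (SE 0.23). The pyruvate dehydrogenase kinase genes PDK1 and PDK3 stood at -0.37 (SE 0.32) and 0.62 (SE 0.26) under prednisolone, and at 0.18 (SE 0.32) and 0.66 (SE 0.26) under vehicle. ADM, which encodes the vessel-dilating peptide adrenomedullin, stood at 0.12 (SE 0.41) and -0.52 (SE 0.41). Under vehicle ADM was -1.14 without the second control vehicle array, where it passed (adjusted p = 0.0414), and 0.10 without the first. VEGFA, the growth factor of blood vessels, stood at 0.68 (SE 0.21, adjusted p = 0.0683) and 0.07 (SE 0.21).

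P4HA1, a subunit of the collagen prolyl hydroxylase, depended on the control vehicle arrays, which lay far apart from each other. These arrays enter the prednisolone comparison only through the estimate of spread. P4HA1 read 7.05 and 7.04 on the prednisolone arrays and 6.67 and 7.39 on the vehicle arrays labelled BTG1 shRNA, against 8.13 and 7.91 on the control prednisolone arrays and 6.53 and 8.24 on the control vehicle arrays. With all arrays its difference was -0.97 (SE 0.51, adjusted p = 0.293) under prednisolone and -0.36 (SE 0.51, adjusted p = 0.619) under vehicle. Without the first control vehicle array it was -0.97 (adjusted p = 0.0355) under prednisolone and -1.22 (adjusted p = 0.0489) under vehicle, and without the second one it also passed under prednisolone (adjusted p = 0.0355) and stood at 0.50 under vehicle (adjusted p = 0.217).

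Few of these genes passed the test with prednisolone. In control shRNA cells NDRG1 was the 1 member of 32 that rose, where 0.928% of all clusters rose, and 0 fell, where 0.587% of all clusters fell. It read 8.16 and 8.16 on the control prednisolone arrays, against 6.60 and 6.41 on the control vehicle arrays, which is 3.15-fold higher (log2 difference 1.65, SE 0.18, adjusted p = 0.00662). Without the first control vehicle array its rise was 1.75 (adjusted p = 0.0199). Without the second control prednisolone array it was 1.66 and missed the threshold (adjusted p = 0.0798). Of the 31 members that did not pass, 7 had an unadjusted p below 0.05, and over all clusters, called ones included, 2526 did. Effects missed at this number of arrays thus remain possible. The median over the 32 genes was -0.15 and that over all clusters -0.16. KDM3A, which encodes a histone demethylase, read 6.77 and 7.93 on the control prednisolone arrays, against 5.86 and 6.61 on the control vehicle arrays, a difference of 1.11 (SE 0.41) that did not pass (adjusted p = 0.295) and was 0.73 without the first control vehicle array.

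The 2 glycolytic genes nearest to the threshold pointed down. SLC2A1 read 7.48 and 7.29 on the control prednisolone arrays, against 8.50 and 8.20 on the control vehicle arrays, a difference of -0.97 (SE 0.19, 95% confidence interval -1.41 to -0.53, adjusted p = 0.0592). LDHA read 11.17 and 11.09 on the control prednisolone arrays, against 12.10 and 11.96 on the control vehicle arrays, a difference of -0.90 (SE 0.18, 95% confidence interval -1.32 to -0.49, adjusted p = 0.063). The prednisolone arrays lay below the vehicle arrays for both genes, and neither passed the test. With each array centred on its median SLC2A1 passed at -0.84 (adjusted p = 0.0345), and without the second control vehicle array it passed at -1.12 (adjusted p = 0.04). Leaving out the first one instead, SLC2A1 stood at -0.82 (adjusted p = 0.178) and LDHA at -0.83 (adjusted p = 0.18). ENO1, PGK1, GPI and PKM stood between -0.39 and -0.16, where the median of all clusters was -0.16. Others stood above 0: PDK1 at 0.46, SENP1;PFKM at 0.30, PDK3 at 0.13, PFKFB3 at 0.09 and LDHB at 0.06. HK2, a hexokinase gene and a known HIF target, stood at 0.48 (SE 0.18, adjusted p = 0.303).

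**Figure D4:**
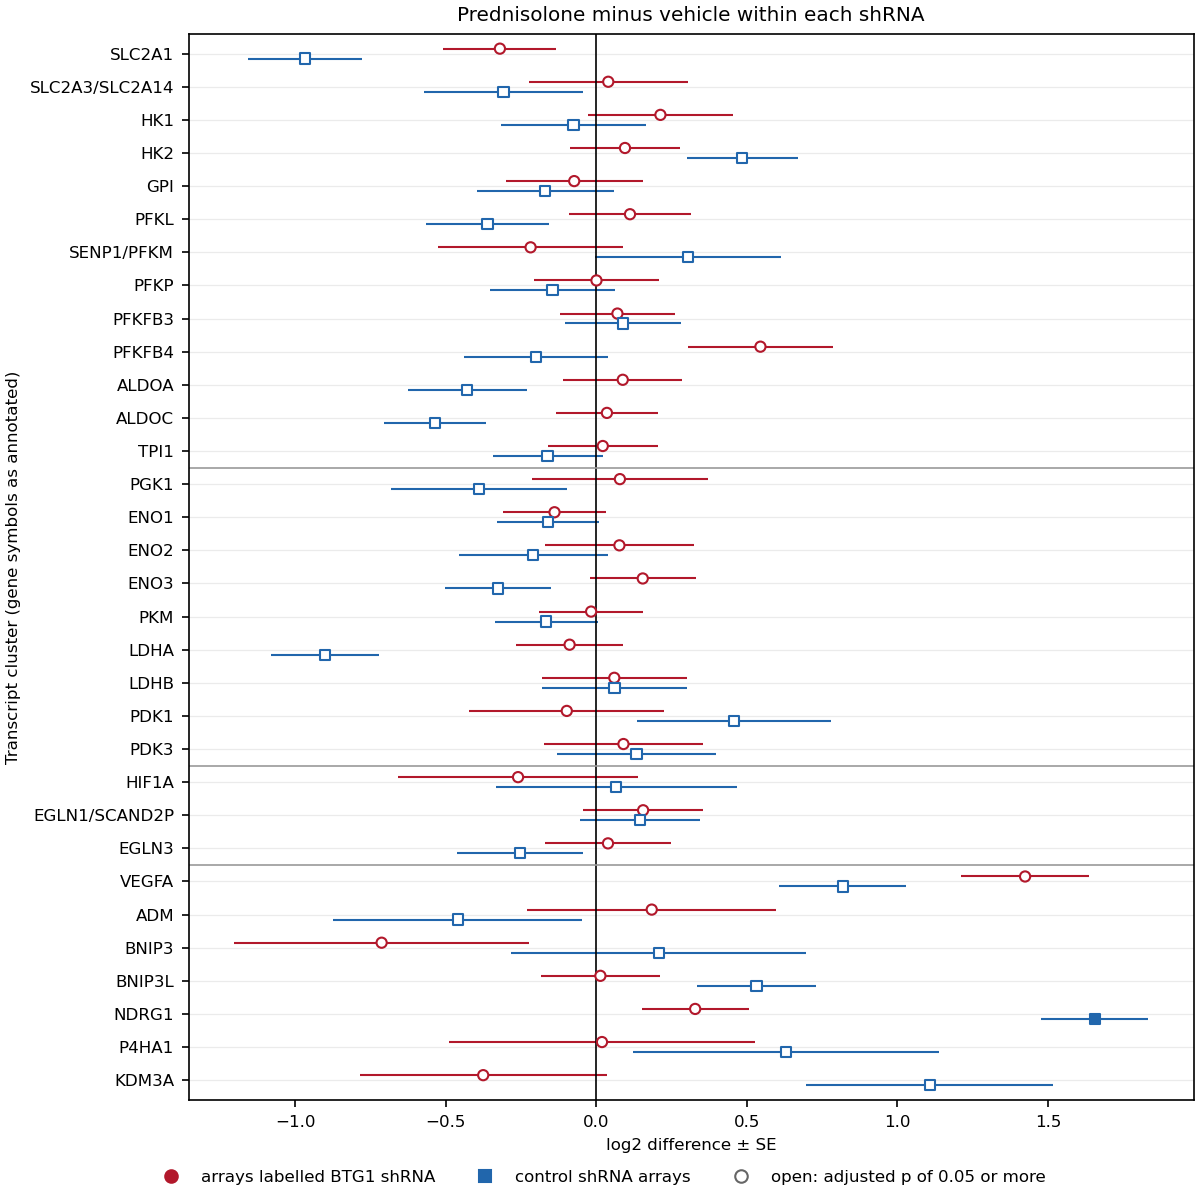
Difference between prednisolone and vehicle (log2, horizontal axis, with SE bars) for the 32 clusters on the arrays labelled BTG1 shRNA (circles) and on the control shRNA arrays (squares). Filled symbols passed adjusted p below 0.05, which only NDRG1 on the control arrays did, at 1.65. VEGFA lies to the right of 0 in both.

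On the arrays labelled BTG1 shRNA 0 of the 32 genes rose or fell with prednisolone in limma, where 0% of all clusters rose and 0% fell. The shared estimate of spread took in the control vehicle arrays, whose median replicate difference over all clusters was 0.44. That of the groups labelled BTG1 shRNA was 0.25 with prednisolone and 0.18 with vehicle. The lack of calls therefore does not show that a response was absent. At an unadjusted p below 0.05 the count was 1 of 32, and over all clusters 186. That gene was VEGFA. It read 6.55 and 6.35 on the prednisolone arrays labelled BTG1 shRNA, against 5.28 and 4.78 on the vehicle arrays so labelled, a difference of 1.42 (SE 0.21, 2.68-fold, unadjusted p = 0.0002, adjusted p = 1.00). On the control arrays it read 5.73 and 5.81 with prednisolone, against 5.01 and 4.90 with vehicle, a difference of 0.82 (SE 0.21, adjusted p = 0.139), and of 0.87 without the first control vehicle array. The prednisolone arrays lay above the vehicle arrays in both, in comparisons that share no array but 1 estimate of spread, and neither passed the adjusted test. NDRG1 stood at 0.33 (SE 0.18), SLC2A1 at -0.32 (SE 0.19) and LDHA at -0.09 (SE 0.18) on the arrays labelled BTG1 shRNA. The median over the 32 genes was 0.04 and that over all clusters 0.03.

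The difference between the prednisolone effects was tested for every member, as the effect on the arrays labelled BTG1 shRNA minus the effect on the control arrays. Of the 32 genes 0 were higher and 0 lower, where 0.0280% of all clusters were higher and 0.106% lower, while 5 members and 1664 of all clusters had an unadjusted p below 0.05. NDRG1 was nearest at -1.33 (SE 0.25, adjusted p = 0.143), LDHA stood at 0.81 (SE 0.25, adjusted p = 0.437), and VEGFA at 0.61 (SE 0.30, adjusted p = 0.537). A different response to prednisolone was therefore not detected for any member at this number of arrays. In 3 members, ALDOA, ENO3 and KDM3A, the prednisolone and vehicle arrays lay apart without overlap in both and in opposite directions, which is 9.38% of the members, against 7.03% of all clusters.

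Other genes of these pathways came from lists chosen with earlier results of these data known. Of all clusters, 10% were higher and 7.51% lower on the arrays labelled BTG1 shRNA under prednisolone, and 8.46% and 6.21% under vehicle. Among 18 other glycolytic isozymes and side reactions 1 was higher and 3 were lower on the arrays labelled BTG1 shRNA under each treatment, with medians of 0.12 under prednisolone and -0.19 under vehicle. The higher one was PFKFB2, a relative of PFKFB4, at 2.10 (SE 0.20) under prednisolone and 1.70 (SE 0.20) under vehicle. The lower ones were LDHC, a lactate dehydrogenase best known from testis, at -2.55 (SE 0.31) and -2.19 (SE 0.31), GPD2, the mitochondrial glycerol phosphate dehydrogenase, at -3.01 (SE 0.35) and -2.32 (SE 0.35), and FBP1, an enzyme of gluconeogenesis, at -1.19 (SE 0.23) and -2.03 (SE 0.23). Among 14 other sugar and lactate transporters, of which 1 is the SLC2A3;SLC2A14 cluster again and another is shared with MIF of the hypoxia list, 3 were higher and 2 lower under prednisolone, and 2 higher and 3 lower under vehicle. SLC2A5, the fructose transporter, stood at -2.63 (SE 0.20) and -2.87 (SE 0.20), and SLC16A10, a carrier of aromatic amino acids, at 2.34 (SE 0.22) and 1.58 (SE 0.22). Among 8 genes of the pentose phosphate pathway 1 was higher and 1 lower under prednisolone, and 2 were higher and 1 lower under vehicle. H6PD, a dehydrogenase of the endoplasmic reticulum, stood at -1.04 (SE 0.18) and -0.92 (SE 0.18), and RPIA, ribose phosphate isomerase, at 1.22 (SE 0.30) and 1.12 (SE 0.30). Of 9 genes of pyruvate dehydrogenase and its regulators 1 was higher under each treatment, the PDK2;SAMD14 cluster at 1.16 (SE 0.23) and 0.89 (SE 0.23). Of 16 HIF subunits and regulators 0 were higher and 1 lower under prednisolone, with CREBBP, a coactivator of HIF, at -1.05 (SE 0.20), and 0 were higher and 0 lower under vehicle.

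Among 39 other genes that hypoxia is known to raise, 5 were higher and 5 lower under prednisolone, and 4 higher and 4 lower under vehicle. These are 12.8% each under prednisolone, against 10% and 7.51% of all clusters, and 10.3% each under vehicle, against 8.46% and 6.21%. The median of the 39 was 0.01 under prednisolone and -0.14 under vehicle, each close to that of all clusters. RORA, a nuclear receptor gene, stood at 3.31 (SE 0.24) and 2.96 (SE 0.24), and P4HA2, the relative of P4HA1, at -1.73 (SE 0.20) and -1.87 (SE 0.20). With prednisolone in control shRNA cells 2 of these 39 rose (5.13%, against 0.928% of all clusters) and 0 fell (against 0.587%). They were DDIT4, an inhibitor of mTOR signalling and a known glucocorticoid target, at 2.46 (SE 0.29, adjusted p = 0.00921), and TXNIP, an inhibitor of glucose uptake, at 2.00 (SE 0.22, adjusted p = 0.00723). DDIT4 stood at 2.41 (adjusted p = 0.0444) and TXNIP at 1.88 (adjusted p = 0.0332) without the first control vehicle array. Both missed the threshold without the second control prednisolone array (DDIT4 at 2.10, adjusted p = 0.0694, and TXNIP at 1.76, adjusted p = 0.0725), as did DDIT4 with array weights (adjusted p = 0.0512). TXNIP read 10.31 and 10.78 on the control prednisolone arrays, against 8.42 and 8.67 on the control vehicle arrays, while on the arrays labelled BTG1 shRNA it read 8.84 and 8.62 with prednisolone, against 9.35 and 9.23 with vehicle. The prednisolone effect on TXNIP differed between the shRNA labels by -2.56 (SE 0.31, adjusted p = 0.0441). This call ended in each of the 8 settings that left out 1 array, with values from -2.80 to -2.33 and adjusted p from 0.0565 to 0.348. It also ended after quantile normalization (adjusted p = 0.0508), centring (adjusted p = 0.0754) and with array weights (adjusted p = 0.0666). In each of the other 5 lists 0 genes passed in either prednisolone comparison.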

How the data were processed

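Total RNA was labelled with biotin and hybridised to exon arrays. Probes were summarised over core meta-probe sets built on hg18, per the labels. The submitters' processing notes name RMA and Partek, without versions. The authors deposited log2 values from which most decimal points were lost, so the table as deposited holds a score without a fixed scale. Only 153 of 143048 values had a point, from 2.47 to 12.25. It was restored behind the leading digit, and behind 2 digits for the 2831 values that began with 1. Correlations between arrays were 0.446 to 0.587 before and 0.872 to 0.995 after. The tests planned for plain log2 values were run on the restored ones, with no further normalization, and 0 columns were left out.

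By the platform annotation 14432 clusters carried 1 symbol, 2408 several and 1041 none. All clusters and arrays went into 1 linear model of 4 group means in limma 3.58.1 under R 4.3.3, with moderated tests (eBayes) and Benjamini-Hochberg adjustment over 17881 clusters per contrast. The step was tested on simulated data. Every member could be named. Members that passed in a contrast and their isozymes are given in full, and up to 3 genes with the smallest p per other list; LDHC was added after its values were seen. Members and lists were chosen with earlier results of these data known. Alternatives were quantile normalization, centring, a filter on dim clusters, array weights, other rows for a symbol, a replicate block and leaving out each array. The array weights came out equal within each group, at 0.40 for both control vehicle arrays. They therefore weigh whole groups and cannot weigh down a single array. Levels of different clusters are not comparable, since probes differ in brightness.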

Additional observations from a re-analysis of the deposited data

Results flagged for a closer look

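In 3 members the prednisolone and vehicle arrays lay apart without overlap under each shRNA label and in opposite directions. For KDM3A the prednisolone effect on the arrays labelled BTG1 shRNA minus that on the control arrays was -1.48 (unadjusted p = 0.0356, adjusted p = 0.526). For ALDOA the difference of effects was 0.52 (adjusted p = 0.546), and for ENO3 it was 0.48 (adjusted p = 0.545). The difference itself passed the limma test in 0 of these 3, and the pattern was met by 7.03% of all clusters.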

How the results depend on the processing

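There were 15 called differences of single members, and 15 alternative settings, of which 8 left out 1 array each. Of 224 recomputed values 215 kept direction and call, 9 kept direction but missed the threshold, and 0 reversed. For SLC2A3;SLC2A14 under vehicle the call also ended with array centring (-1.15, adjusted p = 0.0646) and with array weights (adjusted p = 0.0803). Deviations of equally numbered arrays from their group means correlated at 0.00722 to 0.593, and no label says that a number marks a shared batch. Whether these arrays share more than a number is thus not known, and the main model held no term for it. With the replicate block the count of members called rose to 15 for BTG1 shRNA against control shRNA under prednisolone (10 higher and 5 lower, against 13.5% and 10.7% of all clusters). The count rose to 3 for prednisolone in control shRNA cells (1 higher and 2 lower, against 2.34% and 1.88% of all clusters). The block added SLC2A3;SLC2A14, HK2, PFKL, PGK1, PDK3, VEGFA and EGLN1 under prednisolone (adjusted p from 0.0167 to 0.0488), and SLC2A1 and LDHA for prednisolone in control shRNA cells (adjusted p = 0.02 and 0.0242). It gave 9 under vehicle (6 higher and 3 lower, against 13.6% and 11.9% of all clusters), adding SLC2A1, PDK3 and EGLN1 (adjusted p from 0.0177 to 0.035), and 0 on the arrays labelled BTG1 shRNA and for the difference of effects. With centring, 2 members were called for prednisolone in control shRNA cells (1 higher and 1 lower, against 0.794% and 0.369% of all clusters), and the median of all clusters moved to -0.04 there. Leaving out 1 array gave 0 to 2 members in that comparison, 6 to 13 for BTG1 shRNA against control shRNA under prednisolone, 4 to 9 under vehicle, and 0 in the other comparisons. The count of 13 arose without either control vehicle array, which enters that comparison only through the estimate of spread. The cause of the other changes was not tested. Using only clusters with a single symbol added PFKM as lower under both treatments and gave no value for SLC2A3. Over all clusters, 2623 differed between the shRNA labels under vehicle (4553 with the block, 1289 to 5958 without 1 array) and 3134 under prednisolone (4321 with the block, 1746 to 3891 without 1 array). For prednisolone in control shRNA cells 271 passed (755 with the block, 93 with array weights, 40 to 770 without 1 array), and for the difference of effects 24 (96 with the block, 52 without dim clusters, 14 with centring, 11 with array weights, 0 to 24 without 1 array). Background signal is unknown in these files, which limits values of dim clusters such as TPI1, EGLN3 and, on the control arrays, ENO2 and BNIP3.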
